A study of Hordeum vulgare with 10 samples.

Results

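Barley roots treated with fungal lipids were examined for 1 large gene family, the transcripts described as disease resistance proteins. Of 37962 distinct transcripts, 620 from 609 loci had a description with the words disease resistance, NBS-LRR or NB-ARC and without the word kinase. Of these, 215 transcripts of 208 loci had a mean of at least 1 TPM (the share of a library's transcripts, corrected for transcript length) over all 10 libraries, and these 215 are the members described here. They were selected on their mean TPM and the wording of their descriptions, so levels are given as a description without a test.

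Most of these descriptions name NLR proteins, which carry a nucleotide-binding domain (NBS or NB-ARC) and leucine-rich repeats (LRR). NLRs are intracellular receptors of plants that sense pathogen effectors, either directly or through a guarded host protein, and their activation often ends in a local cell death. They are distinct from the receptors at the cell surface that sense microbial molecules such as chitin, and in a healthy plant they are generally kept at low transcript levels. Grasses are known to lack NLRs that join a TIR domain to leucine-rich repeats, so TIR-NBS-LRR below is the annotation's wording and was not checked against a sequence. The words of the search also take in proteins that are no NLRs, above all the 10 members described as ENHANCED DISEASE RESISTANCE 2. That protein is known from *Arabidopsis thaliana* as a lipid-binding negative regulator of cell death and is no receptor.

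Roots of wild-type barley (*Hordeum vulgare* cv Golden Promise) were sampled at 2 hpt (hours post treatment). Seedlings were 7 d old when their roots were cut, 24 root pieces were kept per well overnight in buffer, and 2 wells were combined per library. Methanol at 1 : 40 (v/v) was in the solution of all groups, and the solvent control (3 libraries) had nothing else added. Ergosterol roots (3 libraries) received this fungal sterol at 250 nM, and *S. indica* lipid roots (4 libraries) received a lipid extract of the root endophyte *Serendipita indica* at 1 : 160 (v/v). All libraries are thus of excised, overnight-rested root pieces, without root tips.

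The question put to these data was whether either lipid treatment changed the level of NLR transcripts. Each transcript's log2FC is the difference of group means of log2(TPM + 1), which understates changes of transcripts near 1 TPM, and was tested with limma over all 18330 transcripts at a mean of 1 TPM or more. Calls needed both an adjusted *p* of 0.05 or less and a log2FC of 1 or more in either direction. TPM hold no read totals, so depth is unknown and the spread between libraries is the measure of precision. Since the labels do not say whether replicates came from separate plants or days, *p* values measure the spread between these libraries. The tissue label was compared with marker transcripts. Nicotianamine synthase transcripts, of the iron uptake of grass roots, summed to between 83.8 and 156 TPM. Only 2 of 14 reached the limit. HORVU.MOREX.r3.2HG0110000.1, at a mean of 105 TPM, held most of the sum, so this marker rests on 1 transcript. Of the expansin transcripts, 31 of 85 reached the limit, where 48.3% of all transcripts did, so they say little about the tissue. Markers of green tissue were low. The chlorophyll a-b binding transcript had at most 0.319 TPM and the photosystem I reaction centre transcript at most 1.16 TPM, while Rubisco small subunit transcripts summed to between 3.08 and 7.71 TPM. Descriptions of Casparian strip proteins, nicotianamine aminotransferase and photosystem II matched 0 transcripts. Any library correlated with any other at a Pearson's *r* of 0.959 to 0.982 across transcripts.

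The family was weakly expressed. Of the matching transcripts, 34.7% reached the limit of 1 TPM, against 48.3% of all transcripts. A total of 405 lay below it, 57 of which still reached 1 TPM in some library, and 104 (16.8%) were listed at 0 in every library, against 24.7% of all transcripts. The 3 members just inside the limit, HORVU.MOREX.r3.2HG0209880.1, HORVU.MOREX.r3.5HG0488450.1 and HORVU.MOREX.r3.3HG0315570.1, all described as TIR-NBS-LRR class, had 1.00 TPM, 1.00 TPM and 1.01 TPM. Just outside it lay HORVU.MOREX.r3.5HG0495560.1 at 0.972 TPM, HORVU.MOREX.r3.5HG0534530.1 at 0.961 TPM and HORVU.MOREX.r3.4HG0407790.1 at 0.950 TPM, all of the NBS-LRR class.

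Among the members the median level was 3.11 TPM, against 10.4 TPM for all transcripts tested, and 71 of the 215 lay under 2 TPM. Only 33 members reached 10 TPM and 13 reached 20 TPM. The spread between libraries of 1 group, as the coefficient of variation, had a median of 18.3% in the solvent control, 15.7% upon ergosterol and 17.3% upon *S. indica* lipids, against 14.3%, 11.9% and 14.8% for all transcripts. A zero was listed for 3 members in some library.

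**Figure D1:**
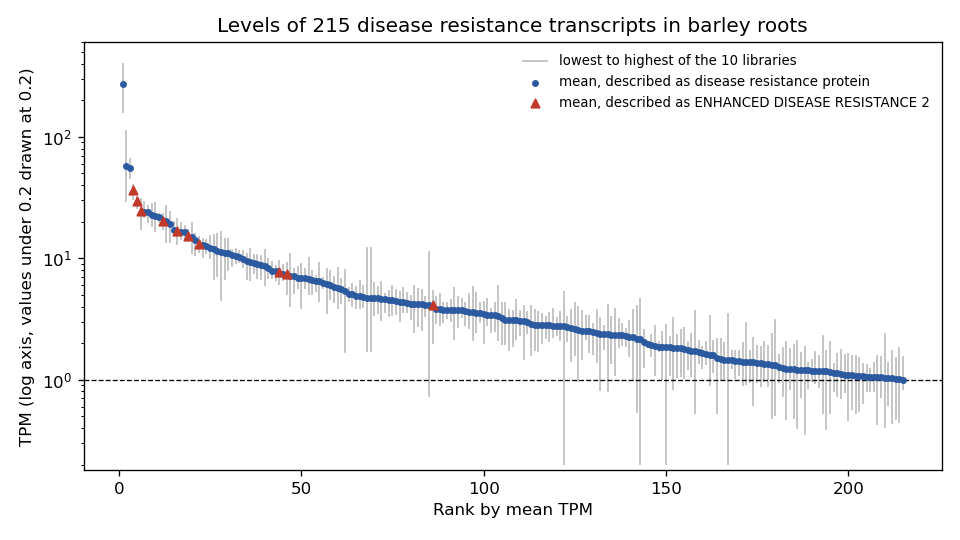
Mean TPM (log axis) of the 215 members in order of level, with a grey bar from the lowest to the highest of the 10 libraries. Points mark transcripts described as disease resistance proteins and triangles the 10 described as ENHANCED DISEASE RESISTANCE 2; the dashed line is the limit of 1 TPM, and 1 member stands above the rest at 275 TPM.

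A single transcript held much of the family's RNA. HORVU.MOREX.r3.3HG0255430.1, described as a disease resistance protein of the CC-NBS-LRR class, in which a coiled coil precedes the nucleotide-binding domain, had a mean of 275 TPM, which is 18.4% of the summed TPM of all members. The 10 most abundant members together held 38.3%. The solvent control libraries had 157, 185 and 171 TPM of this transcript. Ergosterol libraries had 300, 407 and 281 TPM, and *S. indica* lipid libraries had 239, 402, 401 and 208 TPM. All 7 treated libraries thus lay above all 3 solvent control libraries, and the treated libraries scattered widely, with ergosterol replicate 2 and *S. indica* lipid replicates 2 and 3 above 401 TPM. The log2FC was 0.92 (SE 0.25) upon ergosterol and 0.81 (SE 0.23) upon *S. indica* lipids, and neither was called (limma adjusted *p* = 0.0767 and 0.0981).

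Behind it, order by level was far flatter. HORVU.MOREX.r3.3HG0323580.1 (TIR-NBS-LRR class) averaged 57.1 TPM and HORVU.MOREX.r3.5HG0438750.1 (NBS-LRR class) 55.8 TPM. The first of these was called upon ergosterol and is described below. The second had 59.3, 67.1 and 56.8 TPM in the solvent control, 59.4, 54.1 and 59.1 TPM upon ergosterol, and 51.7, 51.8, 44.9 and 53.4 TPM upon *S. indica* lipids. All 4 *S. indica* lipid libraries lay below all solvent control libraries, while the ergosterol libraries overlapped them. Its log2FC was −0.08 and −0.27, with 95% intervals from −0.30 to 0.13 and from −0.47 to −0.07, and adjusted *p* of 0.693 and 0.172. The next 3 members by level were described as ENHANCED DISEASE RESISTANCE 2. Further down, the RGA2-like transcript HORVU.MOREX.r3.7HG0735510.1 (24.1 TPM), the RPM1-like HORVU.MOREX.r3.6HG0551530.1 (22.1 TPM) and the NB-ARC transcript HORVU.MOREX.r3.1HG0067260.1 (21.7 TPM) lay close together.

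Summed over all members, the solvent control libraries had 1299, 1446 and 1320 TPM, the ergosterol libraries 1628, 1540 and 1542 TPM, and the *S. indica* lipid libraries 1581, 1646, 1488 and 1431 TPM. The ergosterol sums lay above all solvent control sums and the *S. indica* lipid sums overlapped them. Without the most abundant transcript the sums ran from 1141 to 1261 TPM, from 1133 to 1328 TPM and from 1087 to 1342 TPM, so that all groups overlapped. Libraries differed within groups in a way that crossed the treatments. Of the 215 members, 185 reached 1 TPM in ergosterol replicate 2, 187 in *S. indica* lipid replicate 3 and 189 in solvent control replicate 1, against 212 in *S. indica* lipid replicate 1 and 206 in solvent control replicate 2. Ergosterol replicate 2 and *S. indica* lipid replicate 3 were also among the 3 libraries with most HORVU.MOREX.r3.3HG0255430.1, and the part of these library differences in the results below was not tested.

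**Figure D2:**
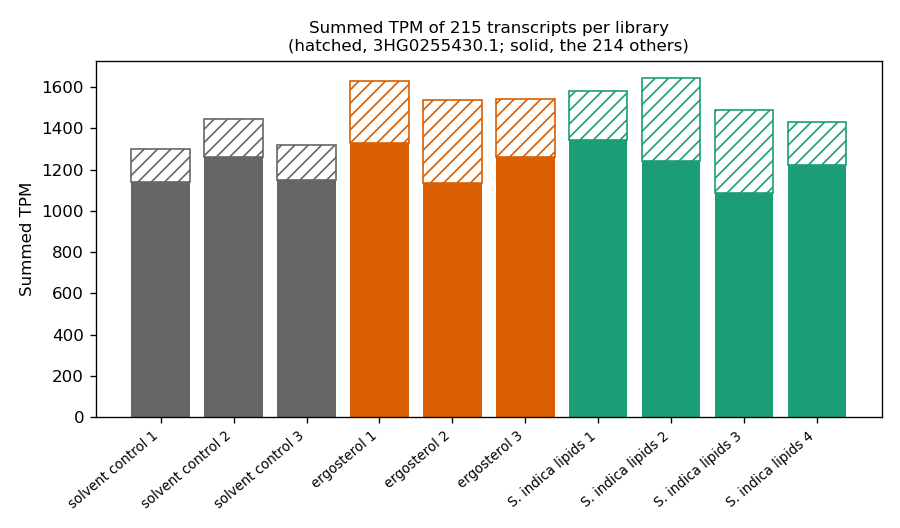
Summed TPM of the 215 members in each of the 10 libraries, with the most abundant transcript, 3HG0255430.1 of the CC-NBS-LRR class, hatched on top. The solid bars, which hold the 214 other members, lie between 1087 and 1342 TPM and overlap between all 3 groups.

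The 215 members fell into classes by the words of their descriptions. NBS-LRR proteins with no further class made up 124 of them, from 328 matching transcripts. RPM1-like proteins, named after the NLR of *A. thaliana* that guards RIN4, made up 30 of 83, and TIR-NBS proteins 23 of 97. NB-ARC proteins made up 6 of 15, RPP13-like proteins 3 of 13, LRR family proteins with no nucleotide-binding domain named 3 of 16, RGA-like proteins 2 of 8, CC-NBS proteins 2 of 10 and other disease resistance proteins 12 of 37. For ENHANCED DISEASE RESISTANCE 2 the share was 10 of 13, and their median level of 16.0 TPM compares with 2.89 TPM for the NBS-LRR class, 3.23 TPM for the RPM1-like class and 2.83 TPM for the TIR-NBS class. Leaving out these 10 gave a median log2FC of −0.01 upon ergosterol and 0.01 upon *S. indica* lipids for the remaining 205.

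By the chromosome named in the identifiers, 52 members lay on chromosome 7H, 38 on 5H, 35 on 2H, 34 on 3H, 28 on 1H, 20 on 6H and 8 on 4H. The matching transcripts made up 2.50% of all transcripts on 7H and 0.457% on 4H. The share of matching transcripts that reached 1 TPM was 48.7% on 5H and 20.8% on 6H. Positions within chromosomes are not given here.

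Upon ergosterol treatment, 4 of 215 members passed both limits, all upwards. That is 1.86%, where 1.16% of all transcripts were called up and 0.0709% down. With the adjusted *p* alone, 6 members were higher (background 2.85%) and 0 lower (background 0.458%). An unadjusted *p* under 0.05 was found for 21 members upwards and 11 downwards, against 7.87% and 11.8% of all transcripts. The median log2FC of the members was −0.02, against −0.08 for all transcripts, and its sign changed under other scalings. For 188 members (87.4%, background 85.0%) the 95% interval of the log2FC lay wholly between −1 and 1. Near 1 TPM the added 1 also limits how low a log2FC can go. The share called up stands near the background, while the downward share at an unadjusted *p* under 0.05 (5.12%) lay under it. The calls are described below as those of single transcripts. Their number was 2 without ergosterol replicate 1 or without ergosterol replicate 3.

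Upon *S. indica* lipid treatment, 2 members passed both limits, both upwards (0.930%, background 1.17% up and 0.0927% down). The adjusted *p* alone gave 4 higher (background 3.29%) and 0 lower (background 0.584%). An unadjusted *p* under 0.05 was found for 20 members upwards and 6 downwards, against 8.56% and 6.75%. The median log2FC was 0.02, against −0.04 for all transcripts. The interval lay within −1 and 1 for 196 members (91.2%, background 88.6%). Without solvent control replicate 3, the call count was 4, and 3 of them were downward, including the pair with identical TPM described below. The solvent control libraries are shared by both comparisons, so their calls are not independent of each other.

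Groups that did not overlap were counted next. Ergosterol libraries all lay above the solvent control libraries in 23 members (background 9.09%) and below them in 15 (background 17%). For *S. indica* lipids the counts were 19 above (background 6.85%) and 4 below (background 6.4%). All 7 treated libraries lay above all 3 solvent control libraries in 12 members (background 5.41%) and below them in 1 (background 4.26%), the RPM1-like HORVU.MOREX.r3.7HG0741070.2. That transcript averaged 1.47 TPM in the solvent control, 0.823 TPM upon ergosterol and 0.834 TPM upon *S. indica* lipids. It thus passed the limit of the rule only through its solvent control libraries. Conversely, 11 members averaged under 1 TPM in the solvent control and passed the limit through their treated libraries. HORVU.MOREX.r3.7HG0750870.1, described below, is 1 of these and is among the 19 above upon *S. indica* lipids. The upward counts are thus in part not independent of the rule, and how large that part is was not counted. The members whose treated libraries all lay above included the 3 described first below and the most abundant one.

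Of the called members, HORVU.MOREX.r3.6HG0633870.1, described as TIR-NBS-LRR class, had the highest log2FC, by a narrow margin upon ergosterol, and was called in both comparisons. The solvent control libraries had 2.73, 2.31 and 1.64 TPM. Ergosterol libraries had 6.07, 6.13 and 7.64 TPM, and *S. indica* lipid libraries had 6.51, 4.82, 7.65 and 8.19 TPM. Every treated library lay well above every solvent control library, and the *S. indica* lipid libraries spread beyond the ergosterol libraries on both sides. The means were 2.23 ± 0.548 TPM (SD, n = 3), 6.61 ± 0.889 TPM (n = 3) and 6.79 ± 1.49 TPM (n = 4). Ergosterol gave a log2FC of 1.25 (SE 0.19, limma adjusted *p* = 0.00553), and the lipid extract gave 1.26 (SE 0.18, adjusted *p* = 0.00291). It was the 1 call that held in both comparisons under every setting tried and with every library left out.

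HORVU.MOREX.r3.1HG0081690.1, an NBS-LRR-like resistance protein, was also called in both. Its levels were 7.42, 5.66 and 4.47 TPM in the solvent control, 16.9, 13.9 and 13.8 TPM upon ergosterol, and 12.5, 11.4, 11.7 and 15.7 TPM upon *S. indica* lipids. The solvent control and treated groups did not overlap. The log2FC was 1.23 (SE 0.17, limma adjusted *p* = 0.00313) and 1.02 (SE 0.16, adjusted *p* = 0.00484). The second value lies just over the fold limit and was 0.87 without solvent control replicate 3 and 0.93 without *S. indica* lipid replicate 4, with adjusted *p* of 0.0247 and 0.0137.

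HORVU.MOREX.r3.1HG0003180.1, likewise an NBS-LRR-like resistance protein, stood at 1.46, 0.960 and 1.02 TPM in the solvent control. It had 4.06, 2.56 and 3.60 TPM upon ergosterol and 2.95, 2.75, 2.92 and 3.22 TPM upon *S. indica* lipids, so that the groups did not overlap and the *S. indica* lipid libraries scattered least. The log2FC was 1.03 (SE 0.17, limma adjusted *p* = 0.00703), a call, and 0.89 (SE 0.16, adjusted *p* = 0.00934), which is under the fold limit. On this scale the call upon ergosterol fell short of the fold limit with some libraries left out. The log2FC was 0.92 and 0.99 without ergosterol replicate 1 or 3, and 0.97 and 0.99 without solvent control replicate 2 or 3. In these fits the adjusted *p* stayed at 0.0440 or below. Upon *S. indica* lipids the log2FC was 1.08 with a pseudocount of 0.5 and 1.31 with 0.1. Both values passed both limits (limma adjusted *p* = 0.00818 and 0.00733).

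HORVU.MOREX.r3.3HG0323580.1, of the TIR-NBS-LRR class, was called upon ergosterol only. The solvent control libraries had 44.1, 29.3 and 32.8 TPM and the ergosterol libraries 113.9, 62.5 and 81.9 TPM, with no overlap. *S. indica* lipid libraries had 65.7, 44.0, 39.6 and 57.3 TPM and overlapped the solvent control. The log2FC was 1.24 (SE 0.24, limma adjusted *p* = 0.0188) and 0.53 (SE 0.23, adjusted *p* = 0.296). Compared directly, ergosterol against *S. indica* lipids gave a log2FC of 0.71 (95% interval from 0.21 to 1.21, adjusted *p* = 0.855), so that a difference between the treatments was not called. The call upon ergosterol was lost at an adjusted *p* of 0.0768 without ergosterol replicate 1, 0.0672 without ergosterol replicate 3, 0.0585 without solvent control replicate 2 and 0.0813 without solvent control replicate 3.

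**Figure D3:**
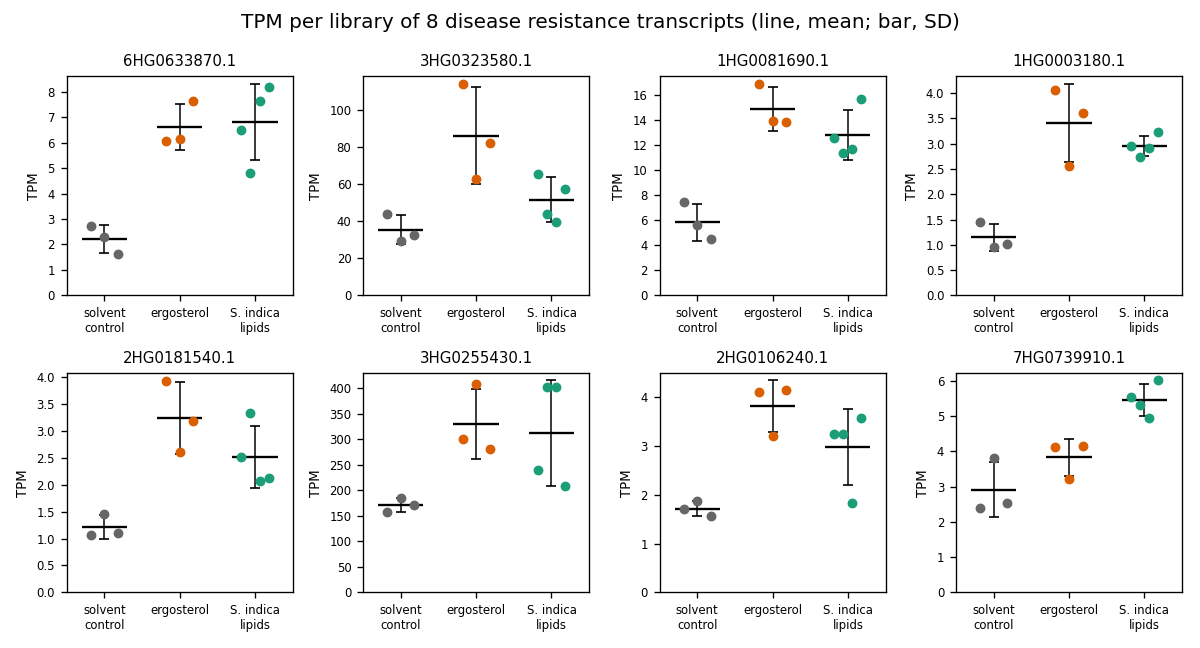
TPM in each library (points), with the group mean (line) and SD (bar), for the 7 members past the adjusted *p* in some comparison and for the most abundant member, 3HG0255430.1; n = 4 *S. indica* lipid libraries and n = 3 in the other groups. In 3HG0323580.1 the ergosterol libraries stand highest, between 62.5 and 113.9 TPM, and in 7HG0739910.1 the *S. indica* lipid libraries do, between 4.96 and 6.03 TPM.

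The remaining members past the adjusted *p* stayed under the fold limit in the reported fit. HORVU.MOREX.r3.2HG0181540.1 (NBS-LRR class) had 1.06, 1.46 and 1.10 TPM in the solvent control, 3.93, 2.60 and 3.19 TPM upon ergosterol and 2.51, 3.33, 2.07 and 2.13 TPM upon *S. indica* lipids. Every treated library again lay above the solvent control, with a log2FC of 0.93 (limma adjusted *p* = 0.0198) and 0.66 (adjusted *p* = 0.0670). The first value passed both limits under some other settings. It was 1.12 and 1.34 with a pseudocount of 0.5 and 0.1, and 1.02 under quantile scaling. Without ergosterol replicate 2 it was 1.04, and without solvent control replicate 2 it was 1.01. HORVU.MOREX.r3.2HG0106240.1 (TIR-NBS-LRR class) had 1.72, 1.87 and 1.56 TPM, then 4.12, 3.21 and 4.15 TPM upon ergosterol, and 3.25, 3.24, 1.84 and 3.59 TPM upon *S. indica* lipids. Here *S. indica* lipid replicate 3 fell within the solvent control range, and the log2FC was 0.83 (adjusted *p* = 0.0438) and 0.53 (adjusted *p* = 0.168). With a pseudocount of 0.1 the value upon ergosterol was 1.11 (limma adjusted *p* = 0.0432), past both limits.

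HORVU.MOREX.r3.7HG0739910.1 (NBS-LRR class) passed the adjusted *p* upon *S. indica* lipids and not upon ergosterol. It had 2.40, 3.82 and 2.54 TPM in the solvent control, 4.12, 3.23 and 4.15 TPM upon ergosterol, and 5.53, 5.32, 4.96 and 6.03 TPM upon *S. indica* lipids. The *S. indica* lipid libraries stood above all others and the other groups overlapped. Its log2FC was 0.31 (limma adjusted *p* = 0.312) upon ergosterol and 0.74 (adjusted *p* = 0.0204) upon *S. indica* lipids. HORVU.MOREX.r3.7HG0750870.1 (NBS-LRR class) showed the same order at a lower level. It had 0.811, 0.641 and 0.739 TPM in the solvent control, 0.506, 0.717 and 1.26 TPM upon ergosterol and 1.67, 2.27, 1.42 and 3.17 TPM upon *S. indica* lipids, with a log2FC of 0.06 and 0.83 (adjusted *p* = 0.923 and 0.0685). With a solvent control mean of 0.731 TPM, it is 1 of 11 members that lay under 1 TPM in the solvent control and passed the limit of the rule through their treated libraries. None of the called members is among these 11. Likewise, 10 members averaged under 1 TPM upon ergosterol and 6 upon *S. indica* lipids, and passed the limit through other groups.

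**Figure D4:**
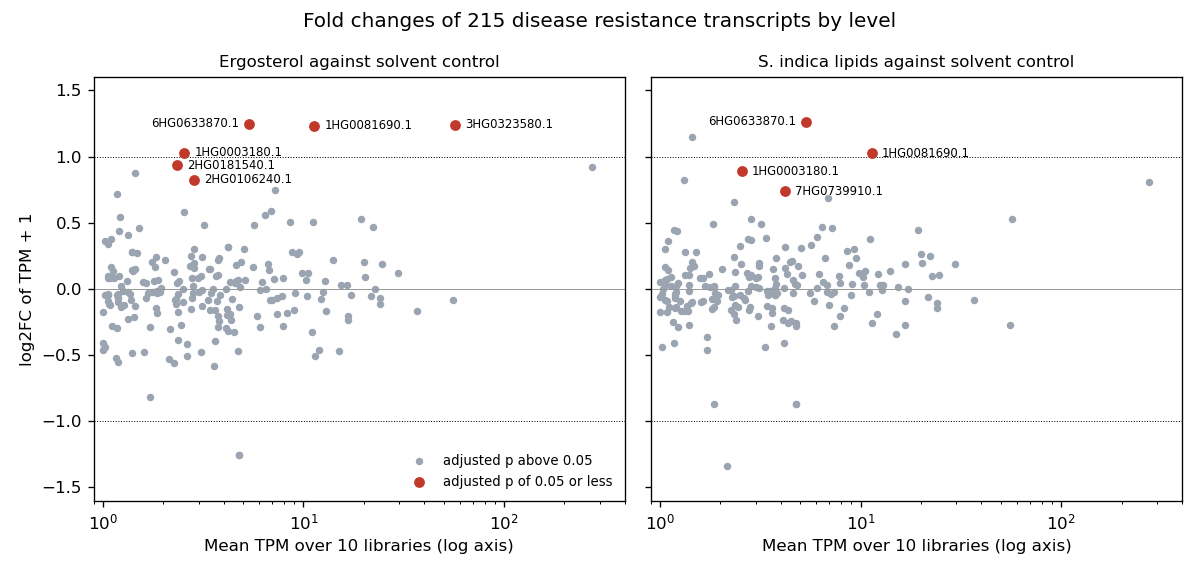
log2FC of TPM + 1 of the 215 members against their mean TPM (log axis), for ergosterol (left) and *S. indica* lipids (right) against the same solvent control libraries. Red points have an adjusted *p* of 0.05 or less (6 and 4 members, all above 0) and dotted lines mark the fold limit; the points below −1, a pair with the same value upon ergosterol and 1 member upon *S. indica* lipids, are grey.

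No member was called down in either comparison. The lowest values upon ergosterol were those of HORVU.MOREX.r3.1HG0002190.1 and HORVU.MOREX.r3.1HG0002210.1, neighbours described as LRR and NB-ARC domain proteins, which had identical TPM in all 10 libraries. They had 12.4, 8.28 and 3.88 TPM in the solvent control, 1.69, 3.03 and 3.14 TPM upon ergosterol and 4.67, 2.93, 4.95 and 2.50 TPM upon *S. indica* lipids. Solvent control replicate 3 stood near the treated libraries and the other solvent controls far above them. The log2FC was −1.25 (limma adjusted *p* = 0.0860) and −0.87 (adjusted *p* = 0.218), and without solvent control replicate 3 it was −1.65 (adjusted *p* = 0.0233) and −1.27 (adjusted *p* = 0.0483), calls in both comparisons. The quantification gave no value that tells them apart, so they are not separate measurements, although every count here lists both. The 215 members thus hold 214 distinct profiles. Below the limit, 13 further matching transcripts shared all their values with another transcript, among them 4 neighbours on 7H at 0.0943 TPM.

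Upon *S. indica* lipids the lowest value belonged to HORVU.MOREX.r3.4HG0371550.1 (TIR-NBS class). Its levels were 4.71, 4.53 and 1.99 TPM in the solvent control, 1.90, 1.96 and 2.66 TPM upon ergosterol, and 1.45, 0, 0.627 and 1.65 TPM upon *S. indica* lipids. The *S. indica* lipid libraries all lay below the solvent control, while the ergosterol libraries overlapped it. This member averaged under 1 TPM upon *S. indica* lipids and passed the limit of the rule through the other groups. The log2FC of −1.34 had an adjusted *p* of 0.0594 (limma), which became 0.0418 without solvent control replicate 3 and 0.0468 without *S. indica* lipid replicate 4. Without solvent control replicate 3 the calls upon ergosterol were 2 up and 2 down, and those upon *S. indica* lipids 1 up and 3 down. In both, 2 of the downward calls are the pair with identical TPM, which is a single profile. HORVU.MOREX.r3.2HG0095970.1 (NBS-LRR) had a log2FC of −0.81 upon ergosterol (adjusted *p* = 0.133). HORVU.MOREX.r3.6HG0559470.1 (RPP13-like) shows the opposite kind of uncertainty, with 1.32, 0 and 0 TPM in the solvent control, 1.07, 0.728 and 3.01 TPM upon ergosterol and 2.17, 0.806, 3.51 and 1.87 TPM upon *S. indica* lipids, and an uncalled log2FC of 0.88 and 1.15 (adjusted *p* = 0.289 and 0.187). It is among the 11 members that averaged under 1 TPM in the solvent control.

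Compared directly, ergosterol and *S. indica* lipids gave 0 called members, as over all transcripts (background 0%). At an unadjusted *p* under 0.05 the count was 8 (background 5.32%), 3 of them higher upon ergosterol, and the lowest adjusted *p* was 0.780 (limma). Ergosterol libraries lay wholly above the *S. indica* lipid libraries in 4 members (background 1.94%) and wholly below in 14 (background 3.86%). The largest differences were a log2FC of 0.81 for HORVU.MOREX.r3.4HG0371550.1 (95% interval from 0.06 to 1.56) and −0.77 for HORVU.MOREX.r3.7HG0750870.1 (from −1.25 to −0.29). The first averaged under 1 TPM upon *S. indica* lipids and the second under 1 TPM upon ergosterol. Both passed the limit of the rule through groups where they were higher, so these differences are not independent of the rule. The interval lay within −1 and 1 for 203 of 215 members (94.4%, background 91.4%). For HORVU.MOREX.r3.6HG0633870.1 the difference was −0.02 (from −0.42 to 0.38), for HORVU.MOREX.r3.1HG0081690.1 it was 0.21 (from −0.15 to 0.56) and for HORVU.MOREX.r3.1HG0003180.1 it was 0.14 (from −0.21 to 0.49). The data thus bound these differences without showing that both treatments act alike.

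The calls by class were 2 of 124 NBS-LRR members and 2 of 23 TIR-NBS members upon ergosterol, and 1 of each upon *S. indica* lipids, where 1.16% and 1.17% of all transcripts were called up. With such a background, the absence of a call among the 30 RPM1-like members says nothing particular about them. Their log2FC ran from −0.44 to 0.48 upon ergosterol and from −0.44 to 0.38 upon *S. indica* lipids. The 10 ENHANCED DISEASE RESISTANCE 2 members ran from −0.30 to 0.19 and from −0.28 to 0.20. For all 10 the 95% interval lay within −1 and 1 in both comparisons (background 85.0% and 88.6%). Their most abundant transcript, HORVU.MOREX.r3.5HG0470940.1, had between 30.0 and 41.1 TPM in every library. Members whose treated libraries all lay above the solvent control without a call included the RGA-like HORVU.MOREX.r3.3HG0225300.1, with 16.1, 13.3 and 15.2 TPM in the solvent control, 24.5, 18.1 and 23.2 TPM upon ergosterol and 23.1, 20.1, 17.8 and 21.6 TPM upon *S. indica* lipids (log2FC 0.52 and 0.45, adjusted *p* = 0.0699 and 0.0967).

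NLR genes often lie in tandem clusters of related copies, which can share reads. With locus numbers at most 100 apart counted as neighbours, 87 of 208 member loci (41.8%) lay in 38 groups, 8 of which held 3 or 4 loci. HORVU.MOREX.r3.1HG0003180.1 lay beside HORVU.MOREX.r3.1HG0003200.1, HORVU.MOREX.r3.1HG0003210.1 and HORVU.MOREX.r3.1HG0003220.1, whose log2FC upon ergosterol was −0.33, 0.13 and −0.09 against 1.03 for the called transcript. Of these the RPM1-like HORVU.MOREX.r3.1HG0003200.1 was the most abundant at 11.0 TPM, with 14.7, 11.5 and 9.62 TPM in the solvent control and 7.83, 12.2 and 8.05 TPM upon ergosterol, which overlap. The test between neighbours was not run.

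A further group on 1H held 4 NBS-LRR loci. HORVU.MOREX.r3.1HG0090200.1 had 4.20, 4.02 and 5.31 TPM in the solvent control and 2.43, 2.71 and 2.88 TPM upon ergosterol, with no overlap, and a log2FC of −0.58 (limma adjusted *p* = 0.0579). HORVU.MOREX.r3.1HG0090170.1 averaged 3.77 TPM and 2.40 TPM, again without overlap (−0.48, adjusted *p* = 0.128), and HORVU.MOREX.r3.1HG0090180.1 had a log2FC of −0.51 (adjusted *p* = 0.319). The last of the group, HORVU.MOREX.r3.1HG0090290.1, stood at 0.07. None of these was called. In a group of 4 loci on 7H, HORVU.MOREX.r3.7HG0634680.1 (TIR-NBS-LRR class) had a log2FC of −0.46 and −0.19, and its neighbours lay between −0.08 and 0.28 in both comparisons. The groups HORVU.MOREX.r3.5HG0502300.1 to HORVU.MOREX.r3.5HG0502370.1 and HORVU.MOREX.r3.7HG0636970.1 to HORVU.MOREX.r3.7HG0637000.1 held values between −0.16 and 0.11.

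At 6 loci more than 1 transcript was a member. At HORVU.MOREX.r3.5HG0501880 (NBS-LRR class) 3 transcripts averaged 4.78, 6.05 and 3.11 TPM, with a log2FC upon ergosterol of −0.14, −0.29 and −0.13. At HORVU.MOREX.r3.3HG0290730 (TIR-NBS class) the first transcript had 4.26 TPM in the solvent control, 3.23 TPM upon ergosterol and 4.88 TPM upon *S. indica* lipids, and the second 2.52, 2.13 and 1.14 TPM. The second varied from 0.00279 to 2.63 TPM among the 4 *S. indica* lipid libraries, and its log2FC of −0.87 had an adjusted *p* of 0.287 (limma). No locus with several member transcripts held a called one (background 1.23% upon ergosterol and 1.26% upon *S. indica* lipids, either direction). For 6 loci this absence says nothing particular.

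Genes known to work with NLRs, and MLO-like genes beside them, were matched by their descriptions, 53 in all, and 37 of these could be tested. Of the 53, 19 were MLO-like (9 tested), a family of membrane proteins named after the barley powdery mildew susceptibility gene and not known as NLR partners. Of the 37, 1 transcript was called up in each comparison (background 1.16% upon ergosterol and 1.17% upon *S. indica* lipids). With the limma adjusted *p* alone, 4 and 5 of the 37 were higher (background 2.85% and 3.29%), 2 of them MLO-like in each comparison. The called transcript was MLO-like, HORVU.MOREX.r3.2HG0107940.3. It had 37.1, 47.3 and 40.8 TPM in the solvent control, 107.8, 78.3 and 101 TPM upon ergosterol, and 108.4, 104.6, 88.9 and 113 TPM upon *S. indica* lipids. All treated libraries stood far above the solvent control, with a log2FC of 1.17 (limma adjusted *p* = 0.00103) and 1.30 (adjusted *p* = 0.000366). HORVU.MOREX.r3.2HG0107940.1, of the same locus, was higher at the adjusted *p* alone (0.91 and 0.87, adjusted *p* = 0.0166 and 0.0118). The other 7 MLO-like transcripts tested passed neither limit.

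Of 5 transcripts of RIN4, the RPM1-interacting protein that NLRs guard in *A. thaliana*, 1 passed the adjusted *p*. HORVU.MOREX.r3.7HG0683070.1 had 77.8, 59.0 and 64.7 TPM in the solvent control, 105.1, 121.8 and 115.9 TPM upon ergosterol and 85.8, 96.1, 114.9 and 112.8 TPM upon *S. indica* lipids. The groups did not overlap with the solvent control, and the log2FC was 0.76 (limma adjusted *p* = 0.0108) and 0.60 (adjusted *p* = 0.0226). The most abundant RIN4-like transcript, HORVU.MOREX.r3.7HG0672670.1 with a mean of 687 TPM, had a log2FC of 0.08 and −0.08. Among 11 metacaspases, proteases linked to plant cell death, HORVU.MOREX.r3.1HG0057410.1 was higher by 0.33 in both comparisons (adjusted *p* = 0.0473 and 0.0301) and HORVU.MOREX.r3.1HG0068810.1 by 0.47 upon *S. indica* lipids (adjusted *p* = 0.0297).

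The chaperones and signalling partners tested were 2 SGT1, 1 RAR1, 5 HSP90, 1 EDS1 and 3 NPR1 transcripts. None had a limma adjusted *p* of 0.05 or less (background 3.31% upon ergosterol and 3.87% upon *S. indica* lipids, either direction). With so few tested, this absence says nothing particular about them. SGT1 and RAR1 fold NLRs together with HSP90. The SGT1 transcript HORVU.MOREX.r3.3HG0273490.1 averaged 257 ± 27.8 TPM (SD, n = 3) without lipids, 221 ± 11.3 TPM (n = 3) with ergosterol and 221 ± 26.7 TPM (n = 4) with the extract, and had a log2FC of −0.22 in both (limma adjusted *p* = 0.334 and 0.379). For RAR1, HORVU.MOREX.r3.2HG0189710.1, it was −0.15 and −0.07. The HSP90 transcript HORVU.MOREX.r3.5HG0490180.1 had 820, 775 and 740 TPM in the solvent control, 489, 635 and 594 TPM upon ergosterol and 699, 633, 647 and 527 TPM upon *S. indica* lipids. All treated libraries lay below the solvent control, with a log2FC of −0.45 (adjusted *p* = 0.0868) and −0.32 (adjusted *p* = 0.206). EDS1, which relays signals of TIR-type NLRs, gave 0.08 and −0.03 (HORVU.MOREX.r3.5HG0478590.1), and NPR1, a salicylic acid receptor, 0.24 and 0.30 (HORVU.MOREX.r3.3HG0291620.1, adjusted *p* = 0.206 and 0.107). No description matched NDR1.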

How the data were processed

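Barley root RNA was sequenced, and the data hold 4 *S. indica* lipid, 3 ergosterol and 3 solvent control libraries. The paper's methods state 4 replicates for each treatment, so the ergosterol and solvent control groups here hold fewer than stated. The authors trimmed reads with Trimmomatic 0.39 and estimated transcript abundance with kallisto 0.46.1 against the MorexV3 transcripts. The deposited signal is TPM per library, beside the authors' mean TPM per treatment. The deposited table also holds the authors' log2 fold changes and the q-values (adjusted p-values) of their sleuth test, which were not used. Of its 43382 lines, 5420 repeat a transcript with the same TPM and were dropped.

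TPM were taken to log2 after adding 1, and limma 3.58.1 (R 4.3.3) was fitted to the 18330 transcripts averaging 1 TPM or more, in 1 fit with 1 mean per treatment and a variance trend, and with Benjamini-Hochberg adjustment over all transcripts of a contrast. TPM keep no depth, so no counting interval is given. The fit was tested on simulated data. Python 3.11.15, pandas 2.3.3 and matplotlib 3.10.9 served for the other steps.

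The members and lists were chosen with earlier results of these data known. Named members were those past a limit in any comparison, the 5 highest and 5 lowest log2FC against the solvent control, the 10 most abundant, the 3 on each side of 1 TPM, the 2 most abundant of each class, those in neighbour groups of 3 or more, and partners past the adjusted p or else the most abundant of their kind. Some of these enter the text only in ranges and counts. Transcripts that share a locus and HORVU.MOREX.r3.7HG0741070.2 were named outside this rule. Classes and partners were matched by words in the descriptions. The HSP90 list also holds Hsp70-Hsp90 organizing proteins, and the NPR1 list a suppressor of npr1-1 constitutive protein. The RefSeq gene table matched 0 member identifiers, and positions and sequences are not given. Alternative settings were a pseudocount of 0.1 or 0.5, a minimum of 5 TPM or none, median-ratio and quantile scaling, a fit of only the 2 groups compared, no variance trend, a replicate block, TPM summed per locus, no fold limit, only the description on a transcript's earliest line, and each library left out in turn.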

Additional observations from a re-analysis of the deposited data

Results flagged for a closer look

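Of 78 named members whose 4 *S. indica* lipid libraries were checked for a library far from the others, 3 were past Dixon's limit, where chance flags about 1 in 20. HORVU.MOREX.r3.1HG0067260.1 (NB-ARC) had 19.5 TPM in *S. indica* lipid replicate 3, and the other 3 libraries lay between 21.9 and 22.0 TPM. HORVU.MOREX.r3.1HG0090170.1 (NBS-LRR-like) had 3.44 TPM in replicate 1, against 2.97 to 3.03 TPM in the others. HORVU.MOREX.r3.7HG0634680.1 (TIR-NBS-LRR class) had 6.57 TPM in replicate 4, against 13.8 to 14.9 TPM, and ergosterol replicate 1 was the next lowest library at 6.73 TPM.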

How the results depend on the processing

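The 4 calls upon ergosterol ranged from 2 to 5 with 1 library left out (2 without ergosterol replicate 1 or replicate 3) and those upon *S. indica* lipids from 2 to 4 (4 without solvent control replicate 3), while the direct comparison gave 0 throughout. With no fold limit, *S. indica* lipids gave 4 calls. Same-numbered libraries did not deviate together (correlations from −0.19 to 0.20), and differently numbered ones gave −0.24 to 0.29. With 3 or 4 libraries a group, these correlations cannot tell whether the numbers pair libraries. The replicate block left 4 calls upon ergosterol and 1 upon *S. indica* lipids, without HORVU.MOREX.r3.1HG0081690.1 (log2FC 0.93, adjusted p = 0.0124). Replicate 4 exists only upon *S. indica* lipids, so the block gives that library no weight in the comparison. This log2FC is therefore the same as with *S. indica* lipid replicate 4 left out. The call of HORVU.MOREX.r3.3HG0323580.1 upon ergosterol was lost with no minimum abundance (adjusted p = 0.116). A pseudocount of 0.1 gave 6 calls upon ergosterol and 3 upon *S. indica* lipids. Over 3022 values of named members under these alternatives, 12 values of 3 members lost a call and 14 values of 6 members gained one. The sign turned in 114 values of 33 members, none of them called, with a reported log2FC of at most 0.38 in size. The members' median log2FC upon ergosterol was −0.02 in the reported fit, 0.04 under median-ratio and 0.07 under quantile scaling. Near 1 TPM, depth is unknown and small changes were not resolved.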
